A study of Rattus norvegicus with 48 samples.

Results

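The levels of 4 genes of bile acid sensing and export were followed in 48 RNA sequencing libraries from precision-cut liver slices, thin sections of living rat liver kept in culture. They were chosen by name and Ensembl ID: Nr1h4 (ENSRNOG00000007197), Nr0b2 (ENSRNOG00000007229), Abcc3 (ENSRNOG00000002948) and Abcb1a (ENSRNOG00000008012), which are 4 of the 32883 genes in the count table. The study used slices to evaluate antifibrotic compounds, and the slices came from rats after bile duct ligation (BDL), which stops bile from leaving the liver, or after a sham operation. In ligated slices, SB525334, which blocks the ALK5 receptor kinase of TGF-beta signalling, was applied in the group BDL_SB525334 (9 libraries), Nint, taken here as the multikinase inhibitor nintedanib, in BDL_Nint (10 libraries), and Sora, taken here as the multikinase inhibitor sorafenib, in BDL_Sora (10 libraries). Ligated slices given vehicle form BDL_veh (10 libraries) and sham slices given vehicle form Sham_veh (9 libraries). All 5 groups are cultured liver slices, so no group shows uncultured liver. The labels give no strain, age, sex, dose, time in culture or animal of origin, so libraries of one group may come from one animal and p-values measure only the spread between libraries. The deposited sample sheet names the BDL_SB525334 libraries by another compound code in 9 of 9 cases, so the identity of that compound rests on the labels.

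Nr1h4 encodes FXR, the nuclear receptor that binds bile acids in hepatocytes, and Nr0b2 encodes SHP, a repressor without a DNA-binding domain whose gene is a classic FXR target. SHP holds back bile acid synthesis in part by inhibiting LRH-1, a nuclear receptor that also binds the Nr0b2 promoter. Abcc3 encodes MRP3, a pump of the basolateral membrane that moves bile acid and glucuronide conjugates from hepatocytes into blood and is known for rising in cholestasis. Abcb1a encodes a P-glycoprotein of the canalicular membrane, which pumps drugs and other lipophilic compounds into bile.

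The 250 bases before the start of Nr0b2 are shown because this gene had the widest range of levels among the groups and its promoter is where FXR and LRH-1 are known to act. RefSeq's promoter table (build GRCr8) matched Nr0b2 and Abcb1a, 2 of the 4 genes. Nr1h4 and Abcc3 were not matched. The Nr0b2 window is chr5:151062910-151063159 on the plus strand, with TCAAGG, the core of the extended half-site bound by LRH-1, in capitals.
Nr0b2 promoter: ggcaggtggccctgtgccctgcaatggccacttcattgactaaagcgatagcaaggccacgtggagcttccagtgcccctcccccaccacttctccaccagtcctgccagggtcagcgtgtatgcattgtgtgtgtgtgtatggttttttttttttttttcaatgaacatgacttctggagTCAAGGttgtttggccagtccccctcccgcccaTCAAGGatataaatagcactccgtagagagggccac
TCAAGG was found 2 times, both on the plus strand, at bases -69 to -64 and -36 to -31 counted from the start. A search of both strands found TCAAGG in 12.6% of 33469 promoter windows of the same table. The single half-site AGGTCA was absent from the Nr0b2 window and present in 14.1% of windows. The inverted repeat AGGTCANTGACCT, a binding element of FXR that contains AGGTCA, was also absent there and present in 0.0269% of windows. These are exact letter matches in one window of 250 bases and do not show binding. Imperfect sites, or sites farther from the start, would be missed, so an absence here does not show that a site is lacking.

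Library totals ran between 12249470 and 29596987 counts, with group medians of 14107981 in BDL_SB525334, 13629248 in BDL_Nint, 14632850 in BDL_Sora, 14392510 in BDL_veh and 16766306 in Sham_veh. Levels below are CPM, counts scaled to library size, with TMM factors, which are not per length, so they compare a gene between groups and not one gene with another. The files pair no ID with a gene name, so the names were taken from the member list and could not be checked. Other genes of bile acid synthesis, uptake and export, and markers of liver cell types, could not be matched to IDs and were not analysed here. The Abcb1a row stands high for an efflux pump: by count it ranked 80th in BDL_SB525334, 46th in BDL_Nint, 53rd in BDL_Sora, 33rd in BDL_veh and 23rd in Sham_veh among 32883 genes. Its expected counts were not whole in 38 of 48 libraries, against 3 for Nr1h4, 2 for Abcc3 and 0 for Nr0b2 (expected counts are not whole where reads are divided among genes). Abcb1a has a close paralog, Abcb1b. Which genes its reads were divided with was not measured, so its level is uncertain. In slices, fewer cells of a type and less RNA per cell cannot be told apart.

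With ligation alone, the repressor Nr0b2 was higher and the receptor Nr1h4 and both pumps were lower. Nr0b2 rose 7.69-fold in ligated vehicle slices, while Nr1h4 fell to 0.416, Abcc3 to 0.393 and Abcb1a to 0.443 of the sham level. All 4 genes were called in this comparison at a p under 0.05 after Benjamini-Hochberg adjustment over 14775 genes (quasi-likelihood test of edgeR), where 82.2% of all genes were called, 40.0% higher and 42.2% lower. With total counts in place of TMM scaling, the calls over all genes were 7860 higher and 4036 lower, against 5911 and 6235, and the median log2 change of all genes moved to 0.30, against -0.05. The directions of the 4 genes were the same under total counts. Quality metrics moved with ligation: the intronic share of reads was 35.6 ± 0.895% in BDL_veh and 27.4 ± 2.13% in Sham_veh, the mitochondrial share 1.42 ± 0.0644% in BDL_veh and 2.25 ± 0.142% in Sham_veh (SD). With the first principal component of the quality metrics (the quality component) as a covariate, all 4 genes were called in the same direction. That component ran from -12.6 to -3.42 in BDL_veh and from 5.33 to 11.7 in Sham_veh. The fit thus cannot separate quality from ligation. The median log2 change of the 4 genes was -1.22. For all 4 genes the BDL_veh and Sham_veh libraries did not overlap, as was the case for 52.6% of genes tested.

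**Figure D1:**
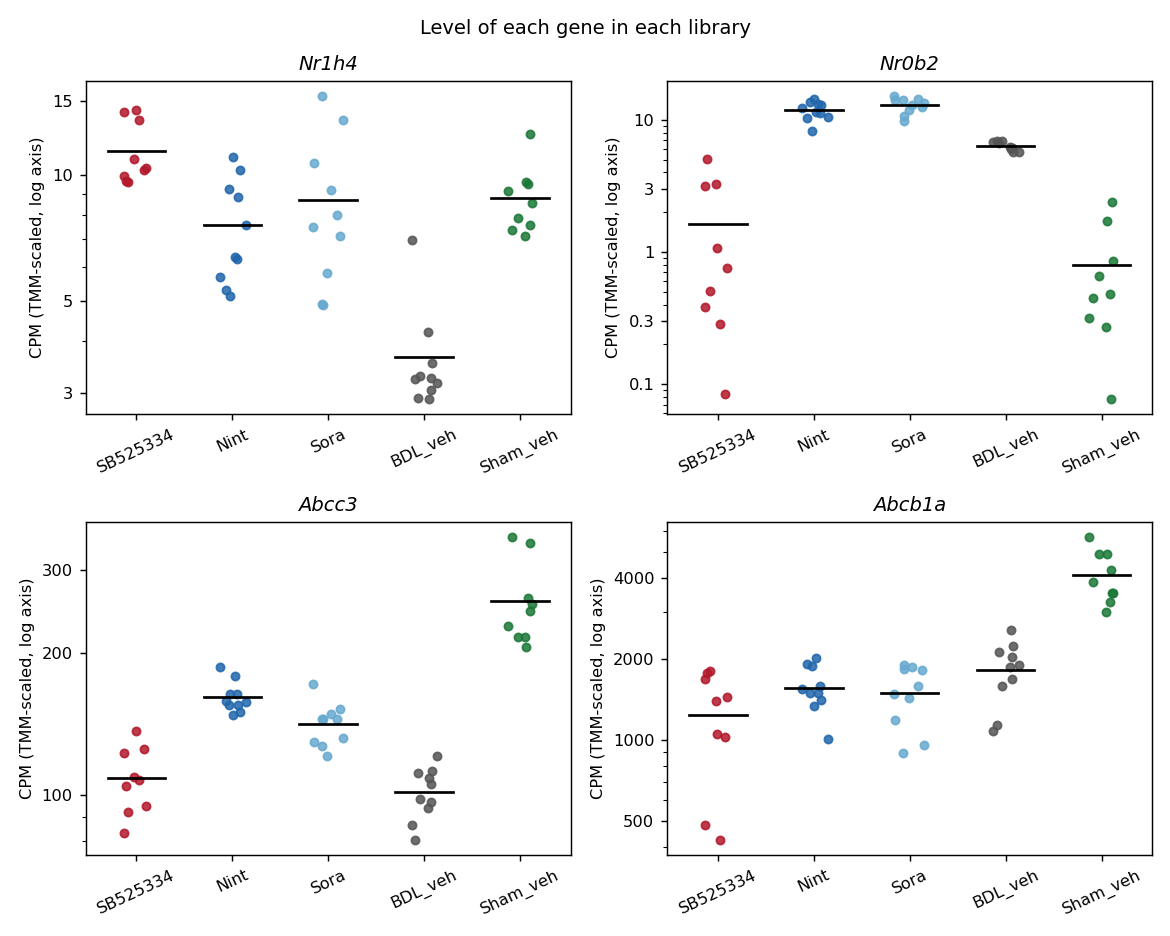
Level of each gene in each library as TMM-scaled CPM on a log axis, 1 panel per gene, with the 5 groups side by side. Points are libraries and black lines are group means. Nr0b2 in BDL_SB525334 spread between 0.0842 and 5.08 CPM, below all BDL_veh libraries, while Abcc3 and Abcb1a stood highest in Sham_veh.

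Nr1h4, the bile acid receptor, ran between 2.91 and 6.98 CPM in BDL_veh (median 3.26) and between 7.11 and 12.5 CPM in Sham_veh (median 8.56). The group means were 3.66 ± 1.22 CPM in BDL_veh (SD, n = 10) and 8.80 ± 1.67 CPM in Sham_veh (SD, n = 9). Library 3 of BDL_veh, at 6.98 CPM, lay closest to the sham range, and the other 9 ligated vehicle libraries were at or below 4.20 CPM. The log2 fold change was -1.27 (SE 0.185, adjusted p = 2.72e-08 with edgeR).

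Nr0b2, the FXR target that represses bile acid synthesis, was scarce in sham slices. It ran between 5.66 and 6.96 CPM in BDL_veh (median 6.20, 82 to 143 counts a library) and between 0.0772 and 2.39 CPM in Sham_veh (median 0.479, 1 to 35 counts). Ligated vehicle libraries had the lowest SD of the 5 groups for this gene, at 6.32 ± 0.474 CPM (SD, n = 10), against 0.799 ± 0.760 CPM in Sham_veh (SD, n = 9). The log2 fold change was 2.94 (SE 0.367, adjusted p = 6.48e-10 with edgeR). It was 2.24 with the first principal component of the quality metrics as a covariate (adjusted p = 0.00205) and 3.56 with limma on the authors' log2 CPM (adjusted p = 1.17e-09). Nr1h4 and Nr0b2, receptor and target, thus stood in opposite order in the 2 groups.

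Abcc3, the basolateral pump, had 80.5 to 121 CPM in BDL_veh (median 102) and 207 to 353 CPM in Sham_veh (median 245). The group means were 102 ± 12.5 CPM in BDL_veh (SD, n = 10) and 258 ± 53.9 CPM in Sham_veh (SD, n = 9). Its log2 fold change of -1.35 (SE 0.0899, adjusted p = 9.92e-19 with edgeR) had the smallest standard error of the 4 genes.

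Abcb1a, the canalicular pump, had 1078 to 2557 CPM in BDL_veh (median 1882) and 3001 to 5693 CPM in Sham_veh (median 3866). Means were 1820 ± 464 CPM in BDL_veh (SD, n = 10) and 4108 ± 904 CPM in Sham_veh (SD, n = 9), a log2 fold change of -1.17 (SE 0.199, adjusted p = 7.11e-07 with edgeR). Libraries 3 and 6 of BDL_veh, at 1078 and 1138 CPM, were the lowest of that group. Both pumps were therefore lower in ligated slices. The share of reads that mapped to more than one place was 8.54 ± 0.235% in BDL_veh and 11.3 ± 0.923% in Sham_veh, and its part in the Abcb1a values was not tested on its own.

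**Figure D2:**
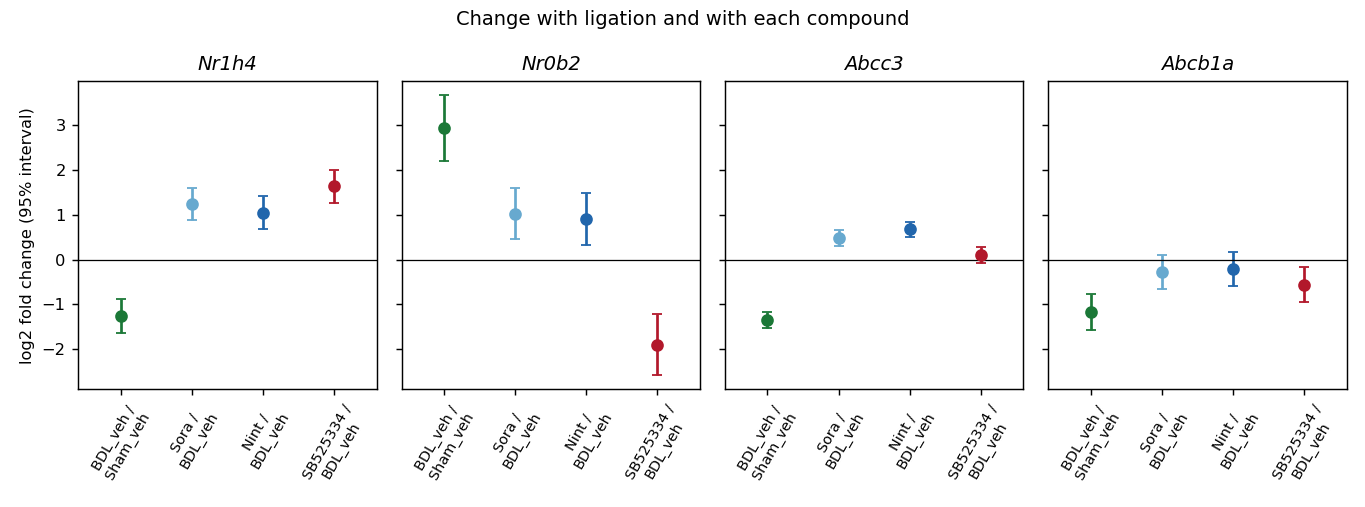
Log2 fold change of each gene with its 95% interval from the edgeR fit, for ligation (BDL_veh over Sham_veh) and for each compound over BDL_veh. Sora and Nint lie at like positions for each gene, while SB525334 lies at -1.91 for Nr0b2 and at 0.10 for Abcc3.

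With Sora, both sensing genes and Abcc3 were higher in ligated slices. Nr1h4 was 2.37-fold, Nr0b2 2.04-fold and Abcc3 1.40-fold of the ligated vehicle level. That is 3 of 4 genes called higher and 0 lower, in a comparison where 16.3% of genes were called higher and 13.0% lower (29.3% in all). With RLE scaling the calls over all genes were 1891 higher and 2333 lower, against 2407 and 1917 with TMM, and with total counts 1598 and 2594. The 3 genes were called higher under both. The median log2 change was 0.75 for the 4 genes and 0.02 for all genes.

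Nr1h4 in BDL_Sora ran between 4.87 and 15.4 CPM (median 7.75), against 2.91 to 6.98 CPM in BDL_veh (median 3.26), and 7 of 10 BDL_Sora libraries stood above every vehicle library. Its mean was 8.70 ± 3.56 CPM in BDL_Sora and 3.66 ± 1.22 CPM in BDL_veh (SD, n = 10 each), with a log2 fold change of 1.24 (SE 0.180, adjusted p = 4.18e-07 with edgeR). This was the widest spread of the receptor in any group: libraries 1 and 3 had 15.4 and 13.5 CPM, and libraries 4 and 5 had 4.92 and 4.87 CPM. Nr0b2 had 9.81 to 15.1 CPM in BDL_Sora (median 13.1), against 5.66 to 6.96 CPM in BDL_veh (median 6.20). All 10 BDL_Sora libraries lay above all vehicle libraries for Nr0b2, the only one of the 4 genes without overlap here, against 7.70% of all genes. Its means were 12.9 ± 1.70 CPM in BDL_Sora and 6.32 ± 0.474 CPM in BDL_veh (SD, n = 10 each), a log2 fold change of 1.03 (SE 0.287, adjusted p = 0.00494 with edgeR). On the authors' log2 CPM values limma gave a like change for Nr0b2, 1.01, that was not called (adjusted p = 0.0869).

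Abcc3 had 121 to 172 CPM in BDL_Sora (median 145), against 80.5 to 121 CPM in BDL_veh (median 102). Means were 142 ± 14.9 CPM in BDL_Sora and 102 ± 12.5 CPM in BDL_veh (SD, n = 10 each), with a log2 fold change of 0.48 (SE 0.0870, adjusted p = 2.44e-05 with edgeR). In 9 of 10 BDL_Sora libraries the basolateral pump exceeded every vehicle library. Abcb1a had 896 to 1898 CPM in BDL_Sora (median 1538), against 1078 to 2557 CPM in BDL_veh (median 1882). The canalicular pump was not called, at a log2 fold change of -0.28 with a 95% interval of -0.67 to 0.11 (adjusted p = 0.290 with edgeR).

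With Nint, the same 3 genes were higher. Nr1h4 was 2.07-fold, Nr0b2 1.87-fold and Abcc3 1.59-fold of the ligated vehicle level. Again 3 of 4 genes were called higher and 0 lower, where 13.4% of all genes were called higher and 10.9% lower (24.3% in all). With RLE scaling the calls over all genes were 1725 higher and 1922 lower, and with total counts 1626 and 1914, against 1973 and 1616 with TMM, and the 3 genes were called higher under both. The median log2 change was 0.79 for the 4 genes and 0.02 for all genes. BDL_Sora and BDL_Nint were set against the same vehicle libraries.

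Nr1h4 in BDL_Nint ran between 5.13 and 11 CPM (median 6.97), against 2.91 to 6.98 CPM in BDL_veh (median 3.26). Library 3 of BDL_veh made the overlap: 5 of 10 BDL_Nint libraries lay below it, and all 10 lay above the other 9 vehicle libraries. Its log2 fold change was 1.05 (SE 0.180, adjusted p = 1.12e-05 with edgeR). Nr0b2 had 8.23 to 14.5 CPM in BDL_Nint (median 11.9) and was above all vehicle libraries in 10 of 10, with means of 11.8 ± 1.85 CPM in BDL_Nint and 6.32 ± 0.474 CPM in BDL_veh (SD, n = 10 each). The log2 fold change of the repressor was 0.91 (SE 0.287, adjusted p = 0.0155 with edgeR), and limma on the authors' log2 CPM values gave 0.88 without a call (adjusted p = 0.157).

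Abcc3 had 148 to 187 CPM in BDL_Nint (median 158), against 80.5 to 121 CPM in BDL_veh (median 102), with no overlap. Its means were 162 ± 12.4 CPM in BDL_Nint and 102 ± 12.5 CPM in BDL_veh (SD, n = 10 each), a log2 fold change of 0.67 (SE 0.0872, adjusted p = 4.47e-08 with edgeR). Nr0b2 and Abcc3 were thus 2 of 4 genes whose BDL_Nint and vehicle libraries did not overlap, against 7.71% of all genes. Abcb1a had 1004 to 2009 CPM in BDL_Nint (median 1519), against 1078 to 2557 CPM in BDL_veh (median 1882), and was not called. Its log2 fold change was -0.22, with a 95% interval of -0.60 to 0.17 (adjusted p = 0.467 with edgeR).

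SB525334 split the sensing pair: the receptor was higher and its target lower than in ligated vehicle slices. Nr1h4 was 3.11-fold of the vehicle level, Nr0b2 0.266 of it and Abcb1a 0.678 of it, and Abcc3 was not called. That is 1 gene called higher and 2 lower, where 38.2% of all genes were called higher and 34.8% lower (73.0% in all). With total counts the calls over all genes were 2768 higher and 8515 lower, against 5642 and 5143 with TMM, and the median log2 change of all genes moved to -0.38, against 0.04. The median log2 change of the 4 genes was -0.23. Libraries did not overlap for Nr1h4 and Nr0b2, 2 of 4 genes, against 34.5% of all genes.

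Nr1h4 ran between 9.62 and 14.3 CPM in BDL_SB525334 (median 10.3), against 2.91 to 6.98 CPM in BDL_veh (median 3.26). The means were 11.4 ± 1.97 CPM in BDL_SB525334 (SD, n = 9) and 3.66 ± 1.22 CPM in BDL_veh (SD, n = 10), with a log2 fold change of 1.64 (SE 0.185, adjusted p = 7.41e-11 with edgeR). All 9 libraries with the compound lay above the vehicle range.

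Nr0b2 had 0.0842 to 5.08 CPM in BDL_SB525334 (median 0.763, 1 to 67 counts a library), against 5.66 to 6.96 CPM in BDL_veh (median 6.20). All 9 libraries with the compound lay below the vehicle range, but not evenly so. Libraries 1, 6 and 8 had 3.15, 3.30 and 5.08 CPM, and the other 6 lay between 0.0842 and 1.07 CPM (median 0.447). Means were 1.63 ± 1.77 CPM in BDL_SB525334 (SD, n = 9) and 6.32 ± 0.474 CPM in BDL_veh (SD, n = 10), a log2 fold change of -1.91 (SE 0.339, adjusted p = 2.66e-06 with edgeR). Libraries 1, 6 and 8 were the 3 with the most Nr0b2, so a larger fall without them follows from that choice. The log2 fold change without them was -3.60. With all libraries, limma-voom with sample weights gave -3.04 and limma on the authors' log2 CPM -2.88. In libraries 1, 6 and 8, 11.3%, 9.85% and 10.9% of reads mapped to more than one place, while the other 6 had at least 13.4%, and the part of this in the Nr0b2 values was not tested.

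Abcc3 had 83.2 to 137 CPM in BDL_SB525334 (median 108), against 80.5 to 121 CPM in BDL_veh (median 102), and 3 of 9 libraries exceeded the vehicle range. Its log2 fold change was 0.10, with a 95% interval of -0.08 to 0.28 (adjusted p = 0.327 with edgeR). Under total counts the direction turned, to -0.32 with a call (adjusted p = 0.00182), while the median of all genes moved by about as much.

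Abcb1a had 426 to 1810 CPM in BDL_SB525334 (median 1395), against 1078 to 2557 CPM in BDL_veh (median 1882). Its means were 1234 ± 524 CPM in BDL_SB525334 (SD, n = 9) and 1820 ± 464 CPM in BDL_veh (SD, n = 10), a log2 fold change of -0.56 (SE 0.199, adjusted p = 0.0108 with edgeR). The canalicular pump was lowest in libraries 4 and 5, at 426 and 484 CPM, in which 20.9% and 15.2% of reads mapped to more than one place and 4.49% and 2.82% were mitochondrial. Libraries 3, 7 and 9, with 16.68%, 16.01% and 15.62% of reads mapped to more than one place, had 1447, 1050 and 1028 CPM. Libraries 1, 2, 6 and 8, with 11.27%, 13.42%, 9.85% and 10.94% of such reads, had 1691, 1810, 1395 and 1773 CPM. The relation of Abcb1a to these shares was not tested. Over the groups, the share mapped to more than one place was 14.4 ± 3.44% in BDL_SB525334 and 8.54 ± 0.235% in BDL_veh. The mitochondrial share was 2.86 ± 0.677% in BDL_SB525334 and 1.42 ± 0.0644% in BDL_veh. With the first principal component of the quality metrics as a covariate, the Abcb1a change was -0.13 and not called (adjusted p = 0.782 with edgeR). In that fit Nr0b2 was at -1.32 (adjusted p = 0.0477) and Nr1h4 at 1.54 (adjusted p = 8.87e-05 with edgeR). The component ran from -1.04 to 15.5 in BDL_SB525334 and from -12.6 to -3.42 in BDL_veh, so the fit cannot separate quality from compound.

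The compounds were compared with each other in 3 pairs, at doses and times the labels do not give. Between BDL_Nint and BDL_Sora none of the 4 genes was called, with adjusted p from 0.269 to 0.918 in edgeR, and Abcc3 alone had an unadjusted p under 0.05 (0.0346). In this pair 2.32% of all genes were called, 1.37% higher and 0.948% lower (203 and 140 genes, against 301 and 83 with total counts). The intervals bound the difference: for Nr1h4 the log2 fold change was -0.19 (95% interval -0.54 to 0.16), for Nr0b2 -0.12 (-0.69 to 0.44), for Abcc3 0.19 (0.01 to 0.36) and for Abcb1a 0.07 (-0.32 to 0.45). In a fit of these 2 groups alone, Abcc3 was called, at 0.19 (adjusted p = 0.0370).

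BDL_SB525334 was set against each multikinase group in turn, and in each pair 3 of the 4 genes were called, a share near that of all genes. Against BDL_Sora, where 72.4% of all genes were called (36.1% higher, 36.3% lower), Nr0b2 was lower by a log2 fold change of -2.94 (adjusted p = 1.88e-10 with edgeR) and Abcc3 by -0.39 (adjusted p = 1.75e-04). Nr1h4 was higher by 0.39 (adjusted p = 0.0448), a call that was made in 5 of 14 alternative settings and in 10 of 19 fits that left out a library. Against BDL_Nint, where 72.7% of all genes were called (36.4% higher, 36.3% lower), Nr0b2 was at -2.81 (adjusted p = 5.71e-10), Abcc3 at -0.57 (adjusted p = 2.20e-07) and Nr1h4 at 0.58 (adjusted p = 0.00333 with edgeR). That call of Nr1h4 was lost with total counts (0.20, adjusted p = 0.281) and with the quality component (0.50, adjusted p = 0.163 with edgeR). The component did not overlap between BDL_SB525334 and BDL_Nint, so that fit cannot separate quality from compound. Without libraries 1, 6 and 8 of BDL_SB525334, the 3 with the most Nr0b2, this gene was at -4.63 against BDL_Sora and -4.50 against BDL_Nint. Lower values follow from leaving out those libraries. With total counts the genes called were 2872 higher and 8391 lower against BDL_Sora, and 2683 higher and 8555 lower against BDL_Nint. Libraries did not overlap for Nr0b2 in the BDL_Sora pair, against 31.3% of all genes, and for Nr0b2 and Abcc3 in the BDL_Nint pair, against 32.4%.

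Abcb1a was called in neither pair, at -0.28 against BDL_Sora (95% interval -0.68 to 0.12) and -0.34 against BDL_Nint (-0.74 to 0.06). Without libraries 1, 6 and 8 of BDL_SB525334 it was called in both, at -0.53 (adjusted p = 0.0286) and -0.59 (adjusted p = 0.0156 with edgeR). Those libraries were the 3 with the most Nr0b2. Their Abcb1a, at 1691, 1395 and 1773 CPM, lay above the group mean of 1234 CPM. Lower Abcb1a values without them follow from that choice.

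Set against sham slices, the treated groups were tested for a difference from the sham level in each gene. Nr1h4 was called in none of the 3 treated groups: its log2 fold change was 0.37 in BDL_SB525334 (95% interval 0.00 to 0.74, adjusted p = 0.0598 with edgeR), -0.21 in BDL_Nint (-0.57 to 0.15, adjusted p = 0.267) and -0.02 in BDL_Sora (-0.38 to 0.34, adjusted p = 0.915). The other 3 genes were called in each, Nr0b2 higher and both pumps lower. Of all genes, 81.2% were called for BDL_SB525334 (42.9% higher, 38.4% lower), 80.9% for BDL_Nint (40.0% higher, 40.9% lower) and 80.4% for BDL_Sora (40.1% higher, 40.3% lower). With total counts the genes called were 5946 higher and 6004 lower for BDL_SB525334, 7817 higher and 3955 lower for BDL_Nint and 7669 higher and 3979 lower for BDL_Sora. Libraries did not overlap with sham libraries for 41.5% of all genes in BDL_SB525334, 50.3% in BDL_Nint and 48.6% in BDL_Sora. For the receptor, 9 of 14 alternative settings called the BDL_SB525334 difference higher, with adjusted p from 0.0126 to 0.114 over the 14. A missed threshold does not show that Nr1h4 was at the sham level.

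Nr0b2 was higher than in sham slices with Nint, at a log2 fold change of 3.85 (SE 0.368, adjusted p = 3.14e-13 with edgeR), and with Sora, at 3.97 (SE 0.368, adjusted p = 1.28e-13). Both multikinase groups lay above every sham library in 10 of 10 libraries. In BDL_SB525334 the repressor averaged 1.63 ± 1.77 CPM, against 0.799 ± 0.760 CPM in Sham_veh (SD, n = 9 each), with a log2 fold change of 1.03 (adjusted p = 0.0191 with edgeR). In a fit of BDL_SB525334 and Sham_veh alone, Nr0b2 fell under the filter for low counts and was not tested. The call from all 48 libraries rests on libraries 1, 6 and 8, the only ones above the sham range. It was lost without library 1 (0.87, adjusted p = 0.0551), library 6 (0.84, adjusted p = 0.0641) or library 8 (0.60, adjusted p = 0.162), and without all 3 the value was -0.63 (adjusted p = 0.132).

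Abcc3 was lower than in sham slices in every ligated group, at a log2 fold change of -1.25 with SB525334 (SE 0.0929, adjusted p = 5.93e-17 with edgeR), -0.68 with Nint (SE 0.0889, adjusted p = 2.24e-09) and -0.87 with Sora (SE 0.0891, adjusted p = 2.56e-12). Abcb1a was lower too, at -1.74 (SE 0.208, adjusted p = 2.61e-10), -1.39 (SE 0.200, adjusted p = 2.10e-08) and -1.46 (SE 0.200, adjusted p = 7.48e-09 with edgeR) for the same 3 groups. No treated library reached the lowest sham library for either pump.

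The order of the group means sums up each gene. For Nr1h4 it was BDL_SB525334 (11.4 CPM), Sham_veh (8.80), BDL_Sora (8.70), BDL_Nint (7.57) and BDL_veh (3.66), and only the last pair of neighbours was called as different. For Nr0b2 it was BDL_Sora (12.9 CPM), BDL_Nint (11.8), BDL_veh (6.32), BDL_SB525334 (1.63) and Sham_veh (0.799), with every pair of neighbours but the first called. Of these Nr0b2 calls, that of BDL_SB525334 against Sham_veh was lost without library 1, 6 or 8, and that of BDL_Nint against BDL_veh on the authors' log2 CPM. For Abcc3 it was Sham_veh (258 CPM), BDL_Nint (162), BDL_Sora (142), BDL_SB525334 (109) and BDL_veh (102), where Sham_veh stood apart from BDL_Nint and BDL_Sora from BDL_SB525334. For Abcb1a it was Sham_veh (4108 CPM), BDL_veh (1820), BDL_Nint (1566), BDL_Sora (1496) and BDL_SB525334 (1234), where Sham_veh alone stood apart from its neighbour. The receptor and its target had their lowest means in different groups, BDL_veh and Sham_veh.

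**Figure D3:**
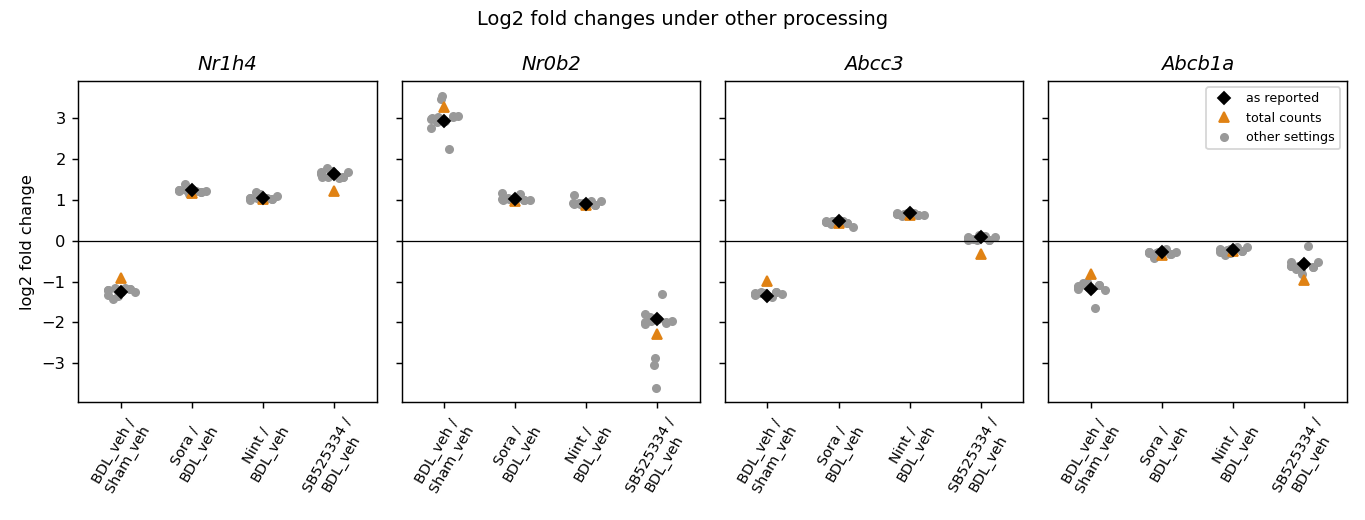
Log2 fold change of each gene with ligation and with each compound over BDL_veh, as reported (black diamonds), with total counts (orange triangles) and in the other alternative settings (grey). Abcc3 in BDL_SB525334 against BDL_veh crosses 0 with total counts, at -0.32 against 0.10.

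Within groups, the libraries showed how the genes varied together once ligation and compound were the same. All 6 pairs of genes were correlated in each of 5 groups, 30 correlations in log2 CPM, and none passed an adjusted p of 0.05, while 11 had an unadjusted permutation p under 0.05. For the receptor and the canalicular pump r was negative in 4 of 5 groups, as it was for 3 of the other pairs. In BDL_Sora Pearson's r between Nr1h4 and Abcb1a was -0.839 (permutation p = 0.00254, adjusted 0.0762, n = 10) and Spearman's rho -0.733 (permutation p = 0.0199, adjusted 0.114). Libraries 1 and 3 of BDL_Sora, with the most Nr1h4, had 896 and 959 CPM of Abcb1a, and libraries 4 and 5, with the least Nr1h4, had 1834 and 1898 CPM. Without libraries 1 and 3, r was -0.540.

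In BDL_SB525334 the same pair had r = -0.826 (exact permutation p = 0.0102, adjusted 0.0918, n = 9) and rho = -0.800 (exact permutation p = 0.0138, adjusted 0.114), and r = -0.948 without the 2 libraries farthest from the median of Nr1h4. In BDL_Nint r was -0.546 (permutation p = 0.101, adjusted 0.216, rho = -0.661 with permutation p = 0.0440, adjusted 0.122), and -0.489 without the 2 farthest libraries. In BDL_veh r was -0.628 (permutation p = 0.0436, adjusted 0.125, rho = -0.600 with permutation p = 0.0745, adjusted 0.149), and -0.365 without the 2 farthest. In Sham_veh r was near 0, at 0.0306 (exact permutation p = 0.939, adjusted 0.965) and rho = 0.183 (exact permutation p = 0.644, adjusted 0.690), and r = 0.0697 without the 2 farthest. Whether the groups differ in this relation was not tested.

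For receptor and target, Nr1h4 and Nr0b2, r was positive in 4 of 5 groups. Pearson's r was 0.672 in BDL_Nint (permutation p = 0.0297, adjusted 0.112, rho = 0.709 with permutation p = 0.0266, adjusted 0.114), and 0.517 without the 2 farthest libraries. It was 0.711 in BDL_Sora (permutation p = 0.0214, adjusted 0.0918, rho = 0.661 with permutation p = 0.0447, adjusted 0.122), and 0.828 without the 2 farthest. It was 0.754 in Sham_veh (exact permutation p = 0.0190, adjusted 0.0918, rho = 0.750 with exact permutation p = 0.0255, adjusted 0.114), and 0.510 without the 2 farthest. Nr0b2 in Sham_veh rests on 1 to 35 counts a library, and library 2 had the most of both genes. In BDL_SB525334 the sign was the other, at -0.340 (exact permutation p = 0.360, adjusted 0.488, rho = -0.217 with exact permutation p = 0.581, adjusted 0.645), and -0.366 without the 2 farthest. In BDL_veh, where Nr0b2 hardly varied, r was 0.245 (permutation p = 0.562, adjusted 0.648, rho = 0.248 with permutation p = 0.493, adjusted 0.569), and -0.184 without the 2 farthest. Over all 48 libraries the pair had r = -0.303, a value that holds the group differences.

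The other 4 pairs gave the remaining 5 unadjusted p under 0.05, of which 3 were in BDL_veh. The pumps Abcc3 and Abcb1a had r = 0.787 there (permutation p = 0.00686, adjusted 0.0918, rho = 0.709 with permutation p = 0.0265, adjusted 0.114), and 0.795 without the 2 farthest libraries. Nr0b2 and Abcc3 had r = -0.725 in BDL_veh (permutation p = 0.0199, adjusted 0.0918, rho = -0.782 with permutation p = 0.0107, adjusted 0.114), and -0.637 without the 2 farthest. Nr0b2 and Abcb1a had r = -0.661 in BDL_veh (permutation p = 0.0387, adjusted 0.125, rho = -0.685 with permutation p = 0.0349, adjusted 0.122), and -0.515 without the 2 farthest. Both negative values in BDL_veh rest on unadjusted tests only. Nr0b2 hardly varied there, at 5.66 to 6.96 CPM on 82 to 143 counts a library. The part of counting noise in these correlations was not tested. Nr1h4 and Abcc3 had opposite signs in 2 treated groups. Their r was 0.678 in BDL_SB525334 (exact permutation p = 0.0457, adjusted 0.125, rho = 0.717 with exact permutation p = 0.0369, adjusted 0.122), and 0.329 without the 2 farthest. It was -0.699 in BDL_Nint (permutation p = 0.0205, adjusted 0.0918, rho = -0.806 with permutation p = 0.00695, adjusted 0.114), and -0.508 without the 2 farthest.

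**Figure D4:**
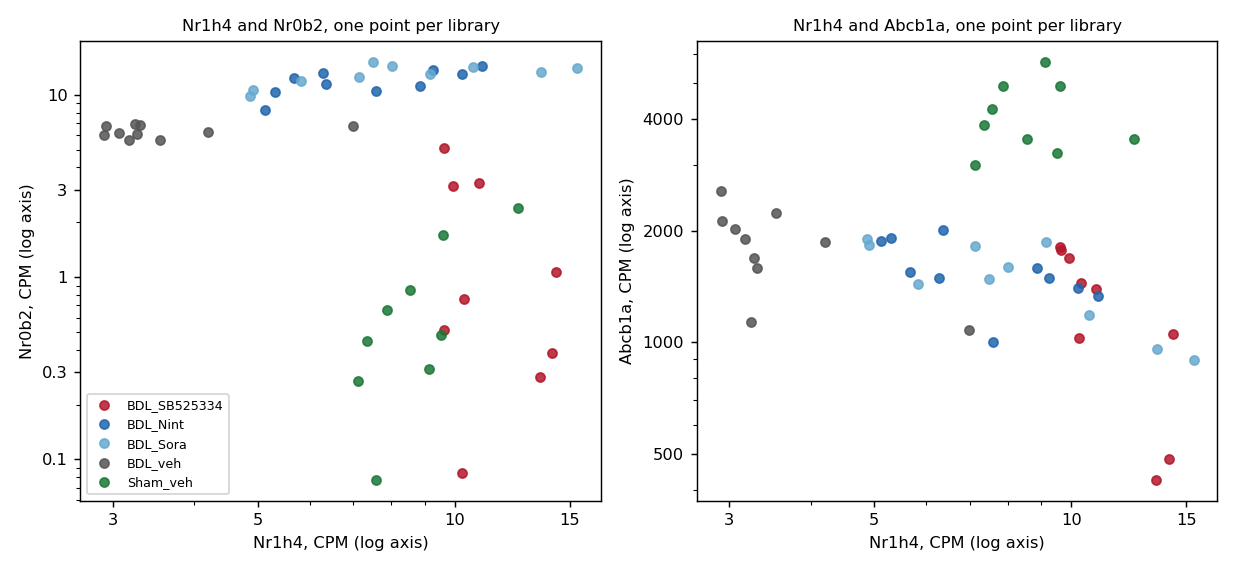
Nr1h4 against Nr0b2 and Nr1h4 against Abcb1a, each point a library in TMM-scaled CPM on log axes, coloured by group. In BDL_Sora, libraries 1 and 3 have the most Nr1h4 and the least Abcb1a (896 and 959 CPM), while all Sham_veh points lie at or above 3001 CPM of Abcb1a.

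The genes most like each of the 4 over all 48 libraries were sought by Pearson's r of log2 CPM among 13628 genes with a mean of at least 1 CPM. Since these values hold the differences between groups, they describe a shared pattern across groups. A like order of group means follows from choosing genes this way. For Nr0b2, 67 genes had r above 0.9, led by ENSRNOG00000013469 (r = 0.957) and ENSRNOG00000015212 (r = 0.953), both higher in ligated vehicle slices. ENSRNOG00000013469 averaged 155 ± 32.9 CPM in BDL_SB525334, 230 ± 14.8 in BDL_Nint, 245 ± 7.86 in BDL_Sora, 234 ± 7.16 in BDL_veh and 143 ± 13.0 in Sham_veh (SD). Its mean with SB525334 stood between those of BDL_veh and Sham_veh, as that of Nr0b2 did. Unlike that of Nr0b2, its mean in BDL_Nint was not above that in BDL_veh. For Abcb1a, 5 genes passed 0.9, led by ENSRNOG00000013018 (r = 0.939), and for Abcc3 3 genes, led by ENSRNOG00000003038 (r = 0.927), both lower in ligated vehicle slices. ENSRNOG00000003038 averaged 146 ± 15.3 CPM in BDL_SB525334, 173 ± 11.8 in BDL_Nint, 164 ± 13.2 in BDL_Sora, 147 ± 17.5 in BDL_veh and 290 ± 53.0 in Sham_veh (SD), the same order of groups as Abcc3 apart from the last 2 places. Nr1h4 had 0 genes above 0.9, its closest at r = 0.897. The 2 pumps had r = 0.609 over the 48 libraries, a value that holds the group differences. Within groups their r had mixed signs, at -0.524 in BDL_SB525334, 0.413 in BDL_Nint, 0.564 in BDL_Sora, 0.787 in BDL_veh and -0.182 in Sham_veh, none called after adjustment.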

How the data were processed

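RNA from rat liver slices was sequenced in 48 libraries. Per the submitters' processing notes, RSEM and edgeR were used with the build Rnor_6.0; the sources used here do not give versions, aligner, annotation or the strand setting of the counting. Expected counts without normalisation were deposited by the authors for 32883 genes, and 8.02% of the values were not whole (tolerance 1e-06) and were rounded here. The authors also deposited log2 CPM for 14418 genes, used for 1 alternative, and quality metrics in percent and other units. Of 172 metrics, 151 varied, and their first principal component held 35.7% of the variance. This component did not overlap between BDL_veh and Sham_veh, nor between BDL_veh and BDL_SB525334. It also did not overlap between BDL_Nint and BDL_SB525334, nor between Sham_veh and BDL_Nint or BDL_Sora. Fits with it cannot separate quality from group in these pairs. BDL_Sora and BDL_SB525334 overlapped only narrowly, with a highest value of -0.175 in BDL_Sora and a lowest of -1.04 in BDL_SB525334. Read 1 was antisense in 98.4% to 99.0% of reads, so the libraries keep strand, but antisense and overlapping genes are uncertain without the counting's setting.

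Genes were filtered with filterByExpr (14775 left, all 4 members among them), scaled with TMM and tested in 1 two-sided quasi-likelihood fit of all 48 libraries with 1 coefficient per group (edgeR 4.0.16, R 4.3.3), with p-values adjusted over all genes tested in each of 10 comparisons. Standard errors come from the F statistic. The fit was tested on simulated data. Correlations used log2 CPM with a prior count of 2 and permutation tests (SciPy 1.17.1, Python 3.11.15), exact in groups of 9 and with 100000 draws in groups of 10, adjusted over 30. Alternatives were RLE factors, total counts, DESeq2 1.42.0, no filter, 5 CPM in at least 9 libraries, fits of 2 groups, limma-voom with sample weights and limma on the deposited log2 CPM (limma 3.58.1), a replicate block, plate column, plate row, the quality component, and libraries left out. Plate row and column were read here from a letter and number in each library's code, which the labels do not name as a plate position. At 12249470 to 29596987 counts a library, scarce genes such as Nr0b2 in sham slices rest on few counts.

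The members, lists, tests and alternatives were chosen with earlier results of these data known. The named genes were the 4 members and, for Nr0b2, Abcc3 and Abcb1a, the most alike genes. The reference table (GRCr8, 47357 genes) holds 0 Ensembl IDs, so at most 2 IDs that rose and 2 that fell were printed, and gene lists and cell type markers could not be used.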

Additional observations from a re-analysis of the deposited data

Results flagged for a closer look

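Of 20 sets of libraries examined, 4 genes in 5 groups, 2 held a library far from the others of its group; chance flags about 1 in 20. Nr1h4 was at 6.98 CPM in library 3 of BDL_veh, against 2.91 to 4.20 CPM in the other 9, a gap of 0.682 of the whole range. It was at 12.5 CPM in library 2 of Sham_veh, against 7.11 to 9.60 CPM in the other 8, a gap of 0.538 of the range. Library 2 of Sham_veh also had the most Nr0b2 of its group, at 2.39 CPM.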

How the results depend on the processing

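Of the 40 results, 26 kept direction and call in every alternative run. Apart from libraries left out in turn, 514 of the values from alternatives kept both, 16 lost a call, 15 gained one and 14 changed sign. Limma on the authors' log2 CPM lost Nr0b2 for BDL_Sora (1.009) and BDL_Nint (0.882) against BDL_veh. Against BDL_veh, BDL_SB525334 had Abcc3 at -0.322 with total counts and Abcb1a at -0.128 with the quality component. For BDL_Nint against BDL_Sora, Abcc3 was called in the fit of 2 groups (0.190), and Abcb1a turned with limma-voom (-0.0257) and plate column (-0.0156). For BDL_SB525334 against BDL_Sora, the Nr1h4 call was lost with RLE (0.364), total counts (0.0387), DESeq2 (0.364), no filter (0.387), the 5 CPM filter (0.337), the fit of 2 groups (0.380), plate column (0.391), plate row (0.466) and the quality component (0.315). Abcb1a there was called with total counts (-0.624) and without libraries 1, 6 and 8 of BDL_SB525334 (-0.535), and turned with the quality component (0.0792). For BDL_SB525334 against BDL_Nint, Nr1h4 was lost with total counts (0.202) and the quality component (0.499), and Abcb1a was called with total counts (-0.714), the authors' log2 CPM (-0.494) and without those 3 libraries (-0.595) and turned with the quality component (0.0343).

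Against Sham_veh, Nr1h4 in BDL_Sora turned with RLE (0.0326), total counts (0.259), DESeq2 (0.0331), the 5 CPM filter (0.066), plate column (0.0264), the quality component (0.0594) and without those 3 libraries (0.00379), and in BDL_Nint with total counts (0.0955). Nr1h4 in BDL_SB525334 was called with RLE (0.397), DESeq2 (0.398), the 5 CPM filter (0.403), the fit of 2 groups (0.363), the authors' log2 CPM (0.402), plate row (0.425), without BDL_veh libraries 3 and 6 (0.370) and without those 3 libraries (0.463). Nr0b2 in BDL_SB525334 lost its call with limma-voom (0.430) and the authors' log2 CPM (0.676) and turned without those 3 libraries (-0.635). In the fit of 2 groups Nr0b2 fell under the filter for low counts, at 1 to 35 counts a library in Sham_veh and 1 to 67 in BDL_SB525334. It thus passed the filter only with other groups included. The causes of the other changes were not tested.

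With each library left out in turn, Abcb1a in BDL_Nint against BDL_Sora ran between -0.003 and 0.122, Nr1h4 in BDL_SB525334 against BDL_Sora between 0.323 and 0.505, Nr1h4 against Sham_veh between -0.120 and 0.0558 in BDL_Sora and between 0.324 and 0.448 in BDL_SB525334, and Nr0b2 in BDL_SB525334 against Sham_veh between 0.596 and 1.44. The count of genes called moved over 1.5 times in 3 comparisons. It was 7581 with limma-voom, against 4324, for BDL_Sora and 5674 (fit of 2 groups) and 6452 (limma-voom), against 3589, for BDL_Nint, both against BDL_veh. For BDL_Nint against BDL_Sora it was 594 (DESeq2), 1605 (2 groups), 3695 (limma-voom), 171 (authors' log2 CPM), 161 (plate column) and 621 (without libraries 1, 6 and 8 of BDL_SB525334), against 343, and 165 to 567 with 1 library left out. Correlations with a prior count of 0.5 gave the same calls in all 30.

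No pairing by replicate number was seen: 25 of 93 same-numbered pairs had deviations correlated over 0.1 (median r 0.013, range -0.281 to 0.55). Pairs with other numbers had a median r of 0.00493, and their share over 0.1 was not computed. Only 4 of 48 libraries were closest to their own number. The labels give no animal, so whether a number marks a shared animal is unknown. A replicate block changed 1 call, Nr1h4 in BDL_SB525334 against Sham_veh (0.372, adjusted p = 0.0474 with edgeR), and gave 310 calls in place of 343 for BDL_Nint against BDL_Sora. Depth limits Nr0b2 most, at 1 to 35 counts a library in Sham_veh and 1 to 67 in BDL_SB525334.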
